A study of Mus musculus and synthetic RNA with 74 samples.

Results

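The 40 mitosis and spindle genes described here encode mitotic cyclins, kinases, spindle checkpoint and kinetochore proteins, spindle motors and cytokinesis factors. The genes were chosen by name, by a rule that uses no measured value but was written with earlier results of these data known, and all 40 were found by gene symbol among the 20330 genes listed for E2.5 mouse embryos and among the 21199 genes listed for E3.5 embryos. The study sequenced polyadenylated RNA of single embryos to compare the transcriptomes of Mettl16 mutants and controls. At E2.5, the morula stage, 5 wild-type (WT), 14 heterozygous (HET) and 12 homozygous knockout (KO) embryos were sequenced. At E3.5, the blastocyst stage, there were 18 WT, 9 HET and 12 KO embryos. The KO allele carries a cassette of stop codons in exon 3 of Mettl16, which encodes an RNA m6A methyltransferase. The allele was made in B6D2F1/J hybrid embryos, and its founders were mated with wild-type C57BL/6JRj mice. The embryos come from 1 founder line, from superovulated HET females mated with HET males, so every KO embryo grew from the oocyte of a HET mother. The genotype of a sequenced embryo was assigned by the study from its own reads.

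The value used here for each gene and stage is the authors' mean of normalized counts over all embryos of the stage, with the 3 genotypes pooled. No spread between embryos and no contrast between genotypes can be drawn from such a mean, so the values are descriptions without a test. WT embryos made up 16.1% of the E2.5 embryos and 46.2% of the E3.5 embryos, and the stages were normalized separately, so stage and genotype mix cannot be told apart in any comparison of the stages. Mettl16 itself had a mean of 778 at E2.5 and 669 at E3.5, which does not check the genotype labels because KO and control embryos enter the same mean.

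Entry into mitosis is driven by Cdk1 bound to cyclin A or cyclin B. Kinetochores that are not yet attached to spindle microtubules keep the spindle checkpoint active, which holds back Cdc20, the activator of the anaphase-promoting complex. Once all chromosomes are attached, the complex marks cyclin B and securin for destruction, separase cuts cohesin, and the cell divides. Many of these genes share promoter elements and are transcribed late in the cell cycle. The early mouse embryo first uses transcripts stored in the oocyte and then its own, and it divides without growing until the blastocyst stage.

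Promoter sequences from RefSeq (GRCm38.p6) are shown first. The choice by name read no sequence. One of the 2 motifs searched is, however, named after cell cycle genes, so its excess among such genes is not independent of the choice. A promoter was held in the reference table for 32 of the 40 genes, in 35 windows of 250 bases before to 50 bases after the start site, and Bub3, Ect2 and Prc1 each have 2 overlapping windows. Aurkb, Ccna2, Cdc25c, Foxm1, Incenp, Kif20a, Spc24 and Tpx2 had no entry. The 120 bases before the start site are given for 5 genes with a lower share of the transcriptome at E3.5 than at E2.5 (Ccnb1, Cdc20, Cdk1, Espl1 and Prc1) and for 4 with a higher share (Ccnb2, Top2a, Bub3 and Mki67). The stretches lie at chr13:100786487-100786606 (minus strand) for Ccnb1, chr4:118437344-118437463 (minus strand) for Cdc20, chr10:69352913-69353032 (minus strand) for Cdk1, chr15:102296173-102296292 (plus strand) for Espl1 and chr7:80294356-80294475 (plus strand) for Prc1. Those of the other genes lie at chr9:70421555-70421674 (minus strand) for Ccnb2, chr11:99024190-99024309 (minus strand) for Top2a, chr7:131560250-131560369 (plus strand) for Bub3 and chr7:135716380-135716499 (minus strand) for Mki67. Each is written 5′ to 3′ on the strand of its gene and ends with the base before the start site. Capitals mark matches, on either strand, to the cell cycle genes homology region (CHR, searched as TTTGAA or TTCGAA) or to the CCAAT box bound by NF-Y (CCAAT, which reads ATTGG on the other strand).
Ccnb1: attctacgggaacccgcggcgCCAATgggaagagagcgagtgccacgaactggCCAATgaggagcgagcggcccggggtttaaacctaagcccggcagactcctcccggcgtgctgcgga
Ccnb2: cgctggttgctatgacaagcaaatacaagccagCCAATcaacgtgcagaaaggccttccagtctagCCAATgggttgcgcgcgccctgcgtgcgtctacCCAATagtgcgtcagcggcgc
Cdc20: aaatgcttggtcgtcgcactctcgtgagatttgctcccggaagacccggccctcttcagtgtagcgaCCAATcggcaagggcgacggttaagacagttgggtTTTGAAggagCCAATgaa
Cdk1: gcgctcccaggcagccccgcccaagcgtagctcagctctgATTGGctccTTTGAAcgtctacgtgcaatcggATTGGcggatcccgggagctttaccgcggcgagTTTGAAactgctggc
Espl1: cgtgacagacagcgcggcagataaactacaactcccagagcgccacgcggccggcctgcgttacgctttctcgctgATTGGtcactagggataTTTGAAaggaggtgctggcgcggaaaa
Prc1: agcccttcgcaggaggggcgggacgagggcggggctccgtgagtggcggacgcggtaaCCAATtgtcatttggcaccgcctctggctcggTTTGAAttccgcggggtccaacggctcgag
Top2a: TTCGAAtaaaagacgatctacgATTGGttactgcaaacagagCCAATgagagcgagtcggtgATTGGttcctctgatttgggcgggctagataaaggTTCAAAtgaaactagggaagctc
Bub3: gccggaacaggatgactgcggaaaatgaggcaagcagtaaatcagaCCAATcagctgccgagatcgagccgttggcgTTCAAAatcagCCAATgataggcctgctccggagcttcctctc
Mki67: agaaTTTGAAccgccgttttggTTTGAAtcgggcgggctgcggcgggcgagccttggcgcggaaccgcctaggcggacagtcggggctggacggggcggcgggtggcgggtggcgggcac

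The Cdk1 stretch holds 2 CHR and 2 CCAAT matches, and that of Top2a holds 2 and 3. Those of Espl1 and Prc1 hold 1 of each. For Bub3 and Prc1, with 2 windows each, the stretch shown is from the window whose full CHR match lies nearest before the start site. In the other Prc1 window the CHR match crosses the start site. The end of the Prc1 stretch lies within exon 1 of the transcript used here. In Ccnb2 the stretch has 3 CCAAT matches, with a CHR match 5 bases into the transcript, outside the stretch. The Ccnb1 window had 2 CCAAT matches and no CHR match, which says only that these letters do not occur in it. In Mki67 the stretch shows 2 CHR matches, and its 3 CCAAT matches begin 188, 166 and 141 bases before the start site. Of the 17 genes with a promoter and a lower share, 12 held both motifs, and of the 15 with a higher share, 11 did.

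A CHR match was present in 29 of the 35 windows (82.9%, 95% Wilson interval 67.3% to 91.9%) and in 19.2% of the 32851 promoters of the reference table. A CCAAT match was present in 28 of the 35 windows (80.0%, 64.1% to 89.96%) and in 37.4% of all promoters. Both occurred in 26 windows (74.3%) against 7.52% of all promoters. The intervals cover counting error only, and the paired windows of Bub3, Ect2 and Prc1 share bases. The matches also kept to a place. The CHR letters began within the 50 bases after the start site in 51.4% of the windows, against 2.46% of all promoters, and CCAAT began within the 50 bases before it in 54.3%, against 9.03%. By gene, 23 of the 32 held both motifs, Anln, Kif2c and Ndc80 only the CHR, Ccnb1 and Cenpe only the CCAAT box, and Birc5, Mad2l1, Nuf2 and Pttg1 neither. The Kif2c window (chr4:117178723-117179022) lies between exons 2 and 3 of the transcript used here, whose first base is 117182624. It is therefore not the promoter of that transcript. A match is a run of letters and does not show that a factor binds there.

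**Figure D1:**
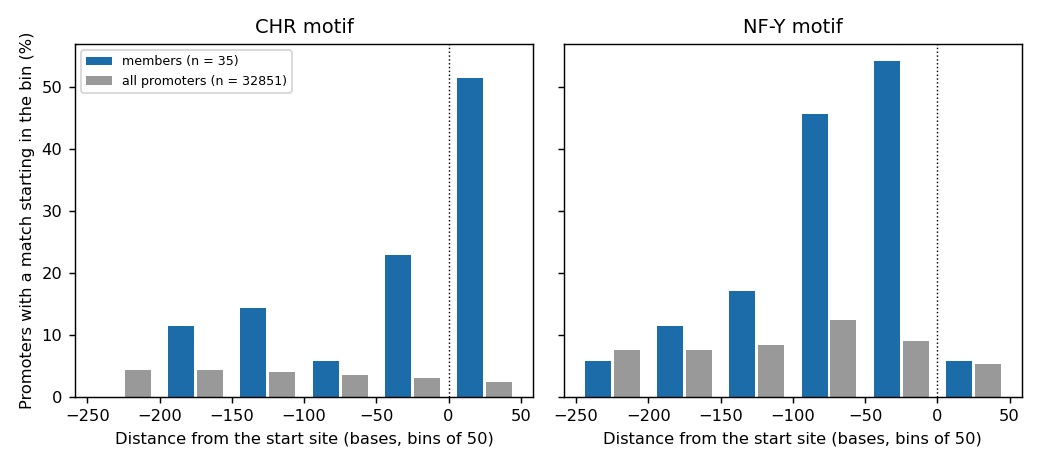
Percentage of promoters with a match that starts in each bin of 50 bases (x axis: distance from the start site in bases), for the CHR motif on the left and the CCAAT box bound by NF-Y on the right. Blue bars are the 35 promoter windows of the mitosis and spindle genes and grey bars all 32851 promoters. The blue bars peak just after the start site for the CHR (51.4%) and just before it for the CCAAT box (54.3%).

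As a group these transcripts were abundant. Per kb of exon, 23 of the 40 genes lay above the 90th percentile of all listed genes at E2.5 and 21 at E3.5, and the lowest of them were Foxm1 at the 64.6th percentile at E2.5 and Cdc25b at the 66.5th at E3.5. The median of the 40 was 1101 per kb at E2.5 and 1043 per kb at E3.5, against 14.5 and 21.4 for all listed genes. Together the 40 genes made up 1.08% of the 2.36e+07 normalized counts of the E2.5 table and 0.655% of the 2.71e+07 of the E3.5 table. They were far from uniform. The highest and the lowest lay 408-fold apart per kb at E2.5 and 53.5-fold apart at E3.5.

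The stage labels were compared with lineage markers. The trophectoderm markers Krt8, Krt18 and Gata3 had means of 651, 1332 and 511 at E2.5, and of 30838, 35173 and 9266 at the later stage. Of 7 trophectoderm markers with a mean of at least 10 in both tables, 5 had a higher share at E3.5 and Tead4 and Tfap2c a lower share. Markers of the inner lineages were mixed. Of 7 inner cell mass and epiblast markers, 5 had a higher share, such as Nanog with 552 and 4161, and 2 a lower share, Pou5f1 with 9017 and 3527 and Esrrb with 1346 and 1055. Of 4 primitive endoderm markers with a mean of at least 10 in both tables, 2 had a higher share, such as Pdgfra with 94.3 and 1575, and 2 a lower share, such as Gata4 with 1268 and 253. Oocyte transcripts had lower means at E3.5, with Zp3, a zona pellucida gene, at 1587 and 104, Oosp1 at 296 and 10.4 and Gdf9 at 108 and 16.6. The 8 oocyte markers summed to 2221 at E2.5 and 166 at E3.5. The listed markers of cumulus and granulosa cells summed to 1.95 and 3.79, and those of blood to 91.8 and 33.6. Of the 3 markers of oviduct epithelium, Ovgp1 had 320 and 25.3, Pax8 had 28.1 and 4.13, and Foxj1 was near 0 in both tables (0.337 and 0.065). The part of leftover oocyte RNA or of other cells in the values below was not tested.

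**Figure D2:**
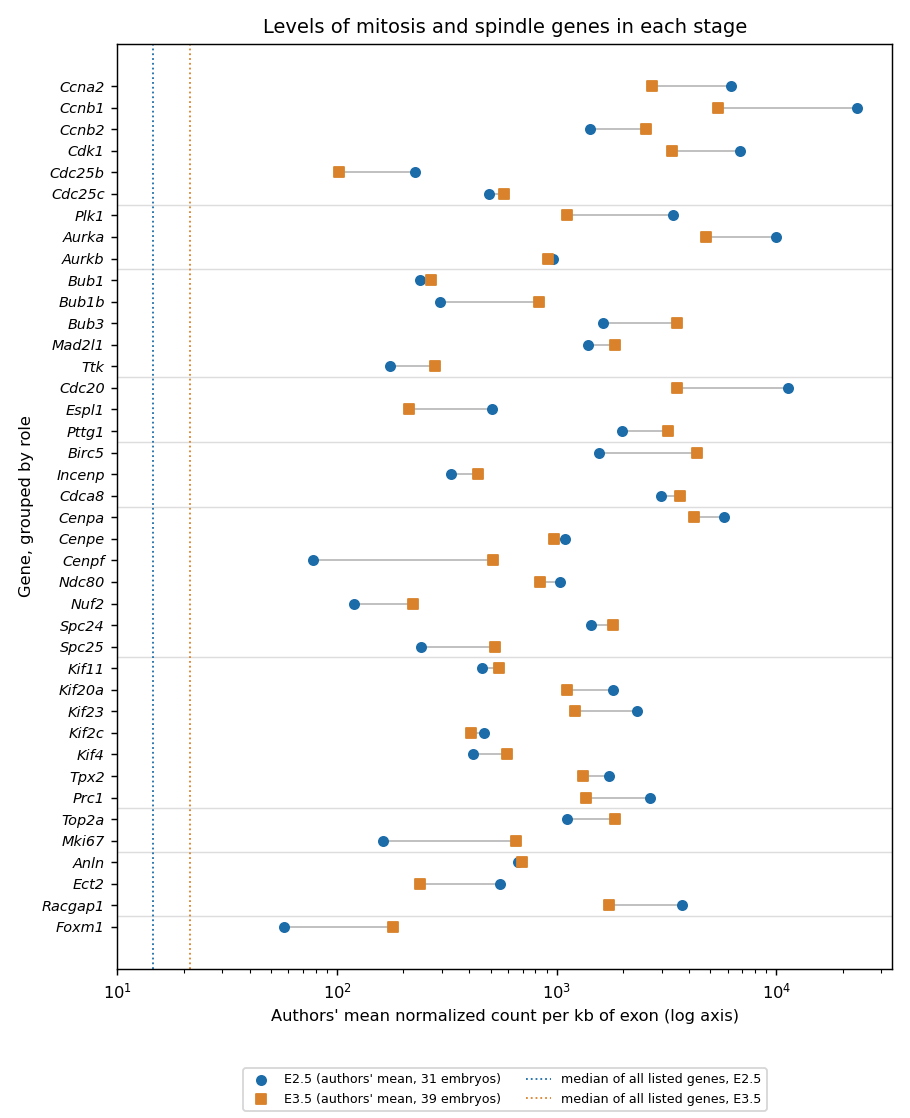
The authors' mean normalized count per kb of exon (log axis) for the 40 genes at E2.5 (blue circles) and at E3.5 (orange squares), in blocks by role, with the median of all listed genes of each stage as a dotted line. All 40 genes lie above both medians. Ccnb1 has the highest value in both stages, and the lowest is Foxm1 at E2.5 and Cdc25b at E3.5.

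Among the drivers of mitotic entry, Ccnb1, which encodes cyclin B1, stood first per kb in both stages. Its mean was 53993 at E2.5 and 12580 at E3.5, or 23313 and 5432 per kb, and its share of the transcriptome was 4.95-fold lower at E3.5. This was the lowest stage ratio of the 40. Its paralog Ccnb2 had 2177 and 3936, a share 1.57-fold higher at E3.5. Cdk1, the kinase that both cyclins activate, had 19497 and 9594, and Ccna2, the gene of cyclin A2, had 17456 and 7643. Their shares were 2.34-fold and 2.63-fold lower at E3.5. Cdc25b and Cdc25c encode phosphatases that remove the inhibitory phosphates from Cdk1. Cdc25b was among the least abundant genes of the set, with 716 and 320 (227 and 102 per kb), and Cdc25c had 955 and 1113. The cyclin B genes lay on opposite sides, and 4 of these 6 genes had a lower share at E3.5. Cdc25c was not among the 4, but its log2 ratio of 0.02 became -0.06 without the 100 most abundant genes and -0.17 with median scaling.

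All 3 mitotic kinases had a lower share at E3.5, to unequal extents. Plk1, which acts at centrosomes, kinetochores and the midzone, had 7486 at E2.5 and 2477 at E3.5, a share 3.48-fold lower. Aurka, the spindle pole kinase, had 19596 and 9472, and ranked 3 per kb at E2.5 and 2 at E3.5. Aurkb, the catalytic subunit of the chromosomal passenger complex, was at 1882 and 1788, only 1.21-fold lower in share. Tpx2, which activates and targets the Aurora A kinase, had 7533 and 5728.

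Most of the spindle checkpoint genes had a higher share at E3.5. Bub3, which brings Bub1 and BubR1 to the kinetochore, was the highest of the 5 with 3423 at E2.5 and 7425 at E3.5. Mad2l1, the gene of the Cdc20 inhibitor Mad2, had 2382 and 3168. Bub1b, the gene of BubR1, had 1076 and 3035, a share 2.45-fold higher, while the related kinase gene Bub1 had 1039 and 1159, with a nearly equal share (1.03-fold lower). Ttk, the gene of the kinase Mps1 at the head of the checkpoint, was the lowest of the 5 at E2.5 with 542, or 174 per kb, and had 870 at E3.5. Thus 4 of the 5 had a higher share at E3.5, although only Bub3, Bub1b and Ttk exceeded the median ratio of all genes.

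Of the anaphase genes, Cdc20 ranked 2 per kb among all 40 at E2.5 and 6 at E3.5, with means of 20040 and 6291. Its share was 3.67-fold lower at E3.5. Espl1, the gene of separase, had 3370 and 1406, a share 2.76-fold lower. Pttg1, the gene of securin, which holds separase inactive, had 3427 and 5585, a share 1.41-fold higher. Separase and its inhibitor thus differed in direction. Exons of Cdc20 overlap those of Elovl1 on the opposite strand (mean 198 and 1433), and in libraries without strand information reads in the overlap cannot be assigned to either gene.

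The chromosomal passenger complex corrects faulty attachments and later acts at the midzone. Birc5, the gene of survivin, had 5329 at E2.5 and 14824 at E3.5, a share 2.41-fold higher, and was the third most abundant of the 40 per kb at E3.5. Cdca8, the gene of borealin, had 4862 and 5944, and Incenp, the scaffold, had 1058 and 1403. In the gene totals the order of the 4 subunits differed between the stages. Cdca8 was highest at E2.5 (2990 per kb) and Birc5 at E3.5 (4340 per kb), while Incenp was lowest in both, 9.09-fold and 9.95-fold below the highest. From summed exon counts the ratio of Birc5 to Cdca8 was 0.356 at E2.5 and 0.938 at E3.5, so Cdca8 stayed above Birc5 there.

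At centromere and kinetochore, Cenpa, which encodes the histone H3 variant of centromeric chromatin, was the most abundant per kb, with 5800 at E2.5 and 4197 at E3.5 and means of 9169 and 6635. Cenpe, a kinetochore motor, had 8543 and 7614. Cenpf, the gene of a large protein of the outer kinetochore, had the highest stage ratio of all 40, with 864 at E2.5 and 5707 at E3.5 and a share 5.73-fold higher. Its level at E2.5 (77.6 per kb) was above that of Foxm1 alone. The NDC80 complex, which binds microtubules, was read from Ndc80 (2281 and 1849), Nuf2 (286 and 535), Spc24 (1939 and 2431) and Spc25 (445 and 962). These 4 subunits assemble in equal numbers, but per kb Spc24 was 12.1-fold above Nuf2 at E2.5 and 8.10-fold at E3.5. Spc24 and Ndc80 were the higher pair, and Nuf2 and Spc25 the lower pair, in both stages.

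Of the 7 motors and microtubule proteins of the spindle, none had a stage ratio above the median of all genes. Prc1, which bundles midzone microtubules, was the highest of them per kb (2671 at E2.5 and 1354 at E3.5), with means of 8078 and 4095 and a share 2.27-fold lower. Kif23, the motor of the centralspindlin complex, had 7937 and 4163 and was 2.20-fold lower in share. Kif20a, a midzone motor, had 7021 and 4343, and its exons overlap those of Cdc23 on the opposite strand. Kif2c, which takes apart microtubule ends, had 1444 and 1252. Kif11, the motor that pushes the spindle poles apart, had 2209 and 2641, and the chromokinesin gene Kif4 had 1956 and 2805, with shares 1.04-fold and 1.24-fold higher at E3.5. For Kif11 the direction depended on the scaling, since its log2 ratio of 0.05 became -0.02 without the 100 most abundant genes and -0.13 with median scaling.

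In the gene totals the cytokinesis genes had lower shares at E3.5, though Anln only slightly. Racgap1, the partner of Kif23 in centralspindlin, had 11363 and 5286, a share 2.48-fold lower, and Ect2, the exchange factor that activates RhoA at the cell equator, had 2265 and 985, a share 2.65-fold lower. Per kb, Racgap1 was 1.60-fold above Kif23 at E2.5 and 1.42-fold at E3.5, so the 2 subunits of centralspindlin stayed close. Anln, the gene of the ring scaffold anillin, had 3618 and 3784, a share 1.10-fold lower. From its last exon alone the share was higher at E3.5 (log2 ratio 1.34). The 2 chromosome structure genes differed from these. Top2a, which untangles sister chromatids, had 5785 and 9574, and Mki67, the gene of the proliferation marker Ki-67 that coats mitotic chromosomes, had 1623 and 6544, a share 3.5-fold higher. Foxm1, a transcription factor of late cell cycle genes, was the least abundant of the 40 at E2.5 with 250 (57.2 per kb) and had 781 at E3.5, a share 2.71-fold higher. Only its last exon had a higher mean at E3.5 (220 and 626), while its exons 1 to 7 all had lower means.

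Across the 40 genes, 21 (52.5%) had a lower share of the transcriptome at E3.5 and 19 a higher share, whereas 39.6% of 11774 genes with a mean of at least 10 in both tables had a lower share. The median log2 ratio of shares was -0.09 for the 40 genes and 0.34 for those 11774 genes, whose quartiles were -0.55 and 1.27. Most of the 40, 28 genes, lay below the median of all genes and 12 above it. The share was lower by more than 1 on the log2 scale for 12 genes, of which Ccnb1 (-2.31), Cdc20 (-1.88), Plk1 (-1.80), Espl1 (-1.47) and Ect2 (-1.41) were lowest, and higher by more than 1 for 5 genes, Cenpf (2.52), Mki67 (1.81), Foxm1 (1.44), Bub1b (1.29) and Birc5 (1.27). The other 23 were within 1. How many of the 11774 genes passed these bounds was not counted, but their upper quartile (1.27) lies above 1. Of the 5 higher genes, Foxm1 had a higher mean at E3.5 in its last exon alone, and Bub1b in exons 15 to 23 alone. The 12 genes were Ccnb1, Ccna2, Cdk1, Cdc25b, Plk1, Aurka, Cdc20, Espl1, Prc1, Kif23, Ect2 and Racgap1. They came from the groups of cyclins and Cdk1, kinases, anaphase genes, spindle motors and microtubule proteins, and cytokinesis genes. None came from the checkpoint, passenger or kinetochore groups, which hold only 5, 3 and 7 genes. A lower share can reflect fewer transcripts or more of other RNA in the embryo, and the 2 cannot be told apart.

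**Figure D3:**
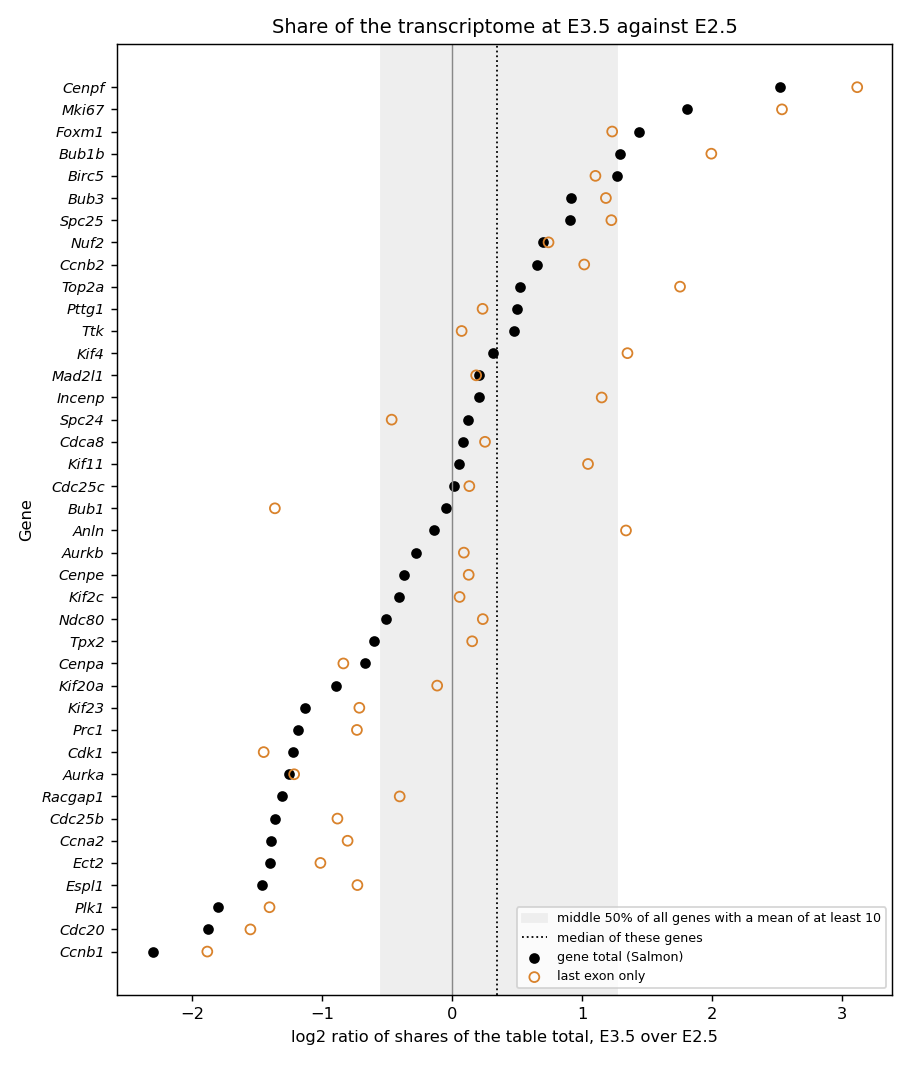
Log2 ratio of the share of the transcriptome at E3.5 over that at E2.5 for the 40 genes in order, from the gene totals (black) and from the last exon alone (open orange circles). The grey band spans the quartiles of all genes whose mean was at least 10 (-0.55 to 1.27), with a dotted line at their median (0.34). In the gene totals 15 genes lie left of the band and 5 right of it, from Ccnb1 at -2.31 to Cenpf at 2.52.

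Ratios between genes within a stage do not depend on how the stages were scaled. Their differences between the stages can still depend on the read distribution along transcripts, described below, which shifted unequally between genes. That part was not tested. The pairs below were picked after their values were seen, and they are given per kb of exon. Ccnb1 exceeded Ccnb2 16.5-fold at E2.5 and 2.13-fold at E3.5. Aurka exceeded Aurkb 10.4-fold and 5.27-fold. Cdc20 exceeded its inhibitor Mad2l1 8.13-fold and 1.92-fold, and it exceeded Fzr1, the gene of the other activator of the anaphase-promoting complex, 53.3-fold and 7.90-fold. In each of these pairs the more abundant gene was the same in both stages and the distance was smaller at E3.5. Pttg1 exceeded Espl1 3.88-fold at E2.5 and 15.1-fold at E3.5, and Bub1b exceeded Bub1 1.22-fold and 3.10-fold, so there the distance was larger at E3.5. The last exon of Bub1, of 1239 bases, had fewer reads per kb than its other exons (31.5 and 14.8), which lowers its level per kb. Bub1b exons 1 to 14 had lower means at E3.5 and its later exons higher means. The ratio of Ccna2 to Cdk1 was 0.911 and 0.811, nearly the same. Pseudogenes named after Ccnb1, Ccnb2 and Kif4 are annotated, and how reads were split between them and the genes is uncertain.

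**Figure D4:**
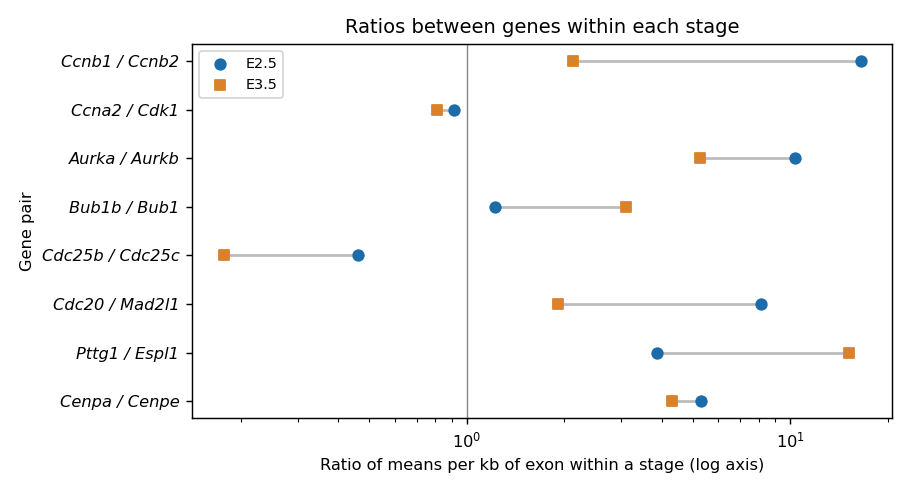
Ratio of the means per kb of exon of 8 gene pairs (log axis) at E2.5 (blue circles) and at E3.5 (orange squares), with a line at 1. Ccnb1 over Ccnb2 goes from 16.5 to 2.13 and Pttg1 over Espl1 from 3.88 to 15.1, while Ccna2 over Cdk1 is 0.911 and 0.811.

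Reads were spread differently along the transcripts in the 2 stages, which bears on every comparison of the stages. Whole exons were placed in the 5′ or the 3′ part of a transcript by where their midpoints lie along its exon length. Reads per base in the 3′ part were set against those in the 5′ part as a log2 ratio. For the 40 genes the median was -0.81 at E2.5 and 0.35 at E3.5, and for genes with a mean of at least 100 it was -0.94 and 0.13. All 40 genes had the higher value at E3.5, by 0.35 to 2.76, with a median of 1.17 against 1.11 for genes with a mean of at least 100, so the shift was not particular to them. Foxm1 (1.42 and 3.88) and Espl1 (1.10 and 3.55) had high ratios, and Cdk1 (-3.81 and -3.32) the lowest. For Foxm1 and Cdk1 the 3′ part is the last exon alone, of 3110 and 1962 bases. How far exon lengths shape these ratios was not tested. From the last exon alone, 16 of the 40 genes had a lower share at E3.5. The sign then differed from that of the gene total for 7 genes: Anln (1.34 against -0.14), Aurkb (0.09 against -0.28), Cenpe (0.13 against -0.37), Kif2c (0.06 against -0.41), Ndc80 (0.24 against -0.51), Tpx2 (0.15 against -0.60) and Spc24 (-0.47 against 0.12). For Ccnb1 (-1.88), Cdc20 (-1.55), Plk1 (-1.41), Cenpf (3.12) and Mki67 (2.54) the last exon gave the same sign as the whole gene. The last exon of Bub1 gave -1.36 and its whole gene -0.05.

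**Figure D5:**
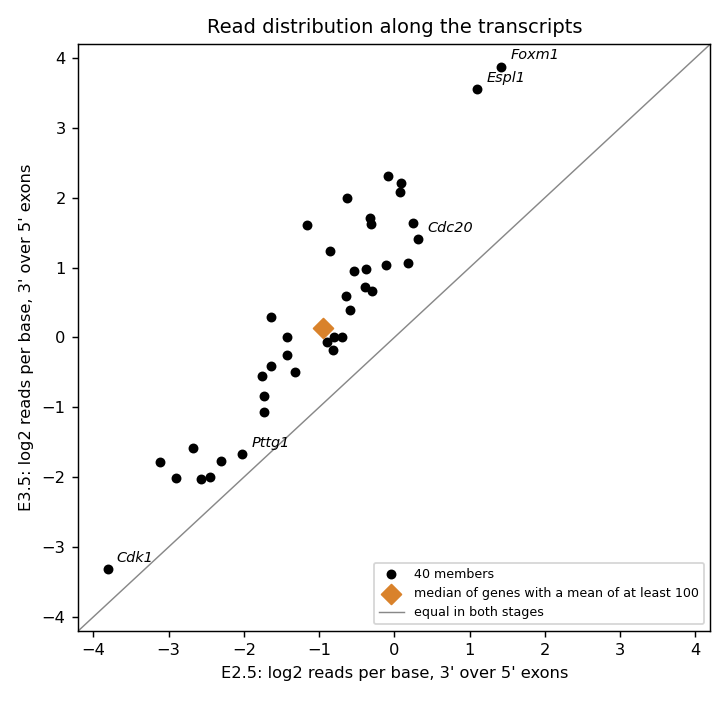
Log2 ratio of reads per base in the 3′ part over the 5′ part of the exons at E2.5 (x axis) and at E3.5 (y axis) for the 40 genes (black) and the median of genes with a mean of at least 100 (orange diamond, at -0.94 and 0.13). All 40 points lie above the line of equal values, from Cdk1 at the lower left to Foxm1 at the upper right.

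Reads in introns were few. The 40 genes have 596 introns in the transcripts used, and the density of intron reads was a median of 0.293% of the exon density at E2.5 and 0.695% at E3.5, against 0.703% and 1.26% for genes at or above 100. It was higher at E3.5 for 35 of the 40 genes, and for 80.0% of all genes at or above 100. The highest values at E2.5 were those of Cdc25b (1.92%), Birc5 (1.52%), Cenpa (1.25%), Foxm1 (1.19%) and Spc24 (1.02%). At E3.5 they were those of Ect2 (3.44%), Cdc25b (2.46%), Espl1 (2.32%), Cdc25c (2.04%) and Kif20a (1.43%). Some single introns with high densities are given here, chosen after their values were seen, and not all such introns are named. Introns 1 and 2 of 14 of Cdc25c had 22.5% and 12.2% at E2.5, against 9.26% and 8.45% at E3.5. They overlap no listed exon. Intron 6 of 15 of Cdc25b (chr2:131191722-131191812, GRCm38) reached 75.4% of the exon density at E2.5 and 62.2% at E3.5, and it overlaps an exon of another transcript of Cdc25b. In Ect2, intron 7 of 24 (chr3:27141700-27144951) had 0.475% at E2.5 and 9.86% at E3.5 and overlaps no listed exon. The short introns 28 and 30 of 30 of Espl1, near its 3′ end, had 6.78% and 6.30% at E2.5, against 19.9% and 24.6% at the later stage. Intron 35 of 35 of Top2a, the last, had 4.80% and 11.9%.

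Other genes of the same machinery showed how the 40 compared. Of 19 genes of the anaphase-promoting complex and its regulators, 12 had a lower share at E3.5 (median log2 ratio -0.17). Its E2 enzyme Ube2c had the highest level per kb at E2.5 of any gene in these lists, 28044, above Ccnb1, with 10664 at E3.5, and Fbxo43, an inhibitor of the complex in oocytes, was lowest of its list with 9.91 and 12.2. Of 18 condensin and cohesin genes, 15 had a higher share at E3.5 (median 0.83). The highest of this list were Cdca5, the gene of sororin, at E2.5 (1254 per kb) and Rad21, the cohesin subunit cut by separase, at E3.5 (1705 per kb), and the lowest were Pds5b (41.1 per kb at E2.5) and Ncapg2 (74.8 per kb at E3.5). Of 26 other kinetochore and centromere genes 15 had a higher share (median 0.39), with Cenpm (1841 per kb at E2.5) and Zwint (1850 per kb at E3.5) highest and Cenpo (49.7 per kb at E2.5) and Cenpk (47.4 per kb at E3.5) lowest. Of 21 other spindle and cytokinesis genes 13 had a higher share (median 0.25), with Rhoa highest in both stages (5774 and 2942 per kb) and Kif14 (38.5 per kb at E2.5) and Kifc1 (48.6 per kb at E3.5) lowest. Of 20 other mitotic kinases and Cdk1 controls with a mean of at least 10 in both tables, 10 had a lower and 10 a higher share. Cks2, which encodes a Cdk-binding subunit, was highest there in both stages (19226 and 24645 per kb), and the lowest were Ccnb3, the gene of cyclin B3 (12.5 per kb at E2.5), and Wee2, an oocyte kinase gene (0.0891 per kb at E3.5).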

How the data were processed

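Single embryos were sequenced by the study with Smart-seq2, which gives libraries without strand information. The authors ran Salmon 0.7.2 on RefSeq transcripts of mm10, summed the estimates per gene, and counted reads on exons and introns with featureCounts (versions per the submitters' processing notes). The signal deposited by the authors and used here is the mean of counts normalized with DESeq2 1.18.1 over all embryos of a stage, given in 4 tables. The tables also hold the authors' log2 fold changes between genotypes and adjusted p-values, which were not used, and the in vitro methylation table was not used here. The planned test of counts between genotypes needs values per embryo and was not run. The paper lists the reads of each embryo library, which differ in number. A mean over all embryos does not show how each library entered it, and no interval or test was possible. Where a read spans several exons, it may count in each.

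Means were divided by the kb of a gene's merged exons, ranked among all listed genes, and expressed as shares of the table's total. Stage ratios are log2 of the share at E3.5 over that at E2.5, beside genes with a mean of at least 10 in both tables. Intron densities and reads along exons used 1 transcript per gene. Overlapping genes (Exosc9 with Ccna2, Elovl1 with Cdc20, Cdc23 with Kif20a, 4933413G19Rik with Foxm1, Mir5622 with Tpx2) share reads or bases. Promoter letters were searched on both strands, and the 9 printed stretches equal the genome of the same build. Coordinates are GRCm38 and 1-based. The steps were tested on simulated data and used matplotlib 3.10.9, pandas 2.3.3, numpy 2.4.6 and Python 3.11.15.

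The 40 genes, the other gene lists and the steps were chosen with earlier results of these data known. By rule, all 40 are named with their means, and described singly are the 5 highest and 5 lowest levels per kb and stage ratios, the 5 highest intron densities, and the highest and lowest gene per kb of each list. Alternatives were other filters, lengths, scalings, exon sums, intron sets and promoter windows. The last exon and the division of exons into 5′ and 3′ parts were added after seeing the data.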

Additional observations from a re-analysis of the deposited data

How the results depend on the processing

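No paired analysis was possible because no result comes from a test and the embryo tables give 1 mean per stage. The genotype tests, DESeq2, the unfiltered test and the fits without single embryos were not run, since they need values per embryo. Of the 40 genes, the number above the 90th percentile per kb at E2.5 was 23 among all listed genes, 15 among genes with a mean of at least 10 and 10 among genes with a mean of at least 100, since fewer low genes remain below. At E3.5 it was 21 among all listed genes and 10 among genes with a mean of at least 100. Exon sums, GENCODE lengths and levels without length gave 22 to 27. The number with a lower share at E3.5 was 21, and 16 to 26 in the other settings. Of the 40, 15 were lower and 14 higher in all 5 settings, and the sign differed for 11, among them Kif11, Cdc25c, Cdca8 and Spc24 between scalings. None of the 5 settings used the 5′ exons alone. Among the 14, the mean of the first exon was higher at E3.5 for Birc5, Cenpf and Spc25 and lower for the others. In Bub1b (exons 1 to 14), Ttk (1 to 15), Top2a (1 to 24) and Foxm1 (1 to 7) these exons had lower means at E3.5. All later exons of these genes had higher means, so their higher shares came from 3′ exons. In Birc5 and Cenpf every exon had a higher mean at E3.5. How far the shares of the rest depend on their 3′ exons was not tested. The median log2 ratio of all genes was 0.34 with shares, 0.27 without the 100 most abundant genes and 0.16 with median scaling, and that of the 40 genes -0.09, -0.16 and -0.28. The 40 genes minus all genes gave -0.44, with -0.28 against genes with a mean of at least 100, -0.40 without a filter, -0.61 from exon sums and -0.26 from the last exon, an alternative chosen after seeing the data. The median intron density at E2.5 was 0.293%, with 0.209% as the median over introns, 0.283% without introns that overlap an exon and 0.268% without the first intron. At E3.5 it was 0.695%, with 0.453% as the median over introns and 0.682% without the first. CHR matches were in 82.9% of promoters, in 31.4% within 150 bases before the start site and in 65.7% on the strand of the gene. The same shares of all promoters were 19.2%, 9.70% and 11.6%. CCAAT matches were in 80.0%, in 77.1% within those 150 bases and in 54.3% on the strand of the gene. Of all promoters the shares were 37.4%, 24.5% and 21.1%. The cause of these shifts was not tested, except that the window before the start site leaves out the bases after it.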

Other observations

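The regulators that act on such promoters were measured in the same tables. Of 19 genes of the MuvB, B-Myb and E2F list with a mean of at least 10 in both tables, 10 had a lower and 9 a higher share at E3.5. Mybl2, the gene of B-Myb, had 1420 per kb at E2.5 and 2269 at E3.5 and was the highest of the list at E3.5. Lin54, the MuvB subunit that binds the CHR, had 48.2 and 65.0 per kb, and the NF-Y subunits Nfya, Nfyb and Nfyc had 81.2, 950 and 4119 per kb at E2.5, against 77.9, 468 and 2177 at the later stage. E2f3 was lowest at E2.5 (1.61 per kb) and Rb1, the retinoblastoma gene, at E3.5 (1.64 per kb). Lin54, Nfya and Nfyb were named after their values were seen.

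Of 14 genes of the G1 and S list with a mean of at least 10 in both tables, 5 had a lower and 9 a higher share at E3.5. Ccne1, the gene of cyclin E1, was the highest at E2.5 with 7642 per kb and had 1206 at E3.5 (log2 ratio of shares -2.87), below the ratio of Ccnb1. Gmnn, the gene of the licensing inhibitor geminin, was highest at E3.5 with 8773 per kb, and had 5666 at E2.5. Cdk6 (5.87 per kb at E2.5) and Cdkn1c (3.76 per kb at E3.5) were lowest. Aurkc, the Aurora kinase of germ cells, had 1666 per kb at E2.5, above Aurkb at 958, and 119 at E3.5, below Aurkb at 910, and was named after its values were seen.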
